A study of Sus scrofa with 4 samples.

Results

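The nuclear genes of the respiratory chain and of the mitochondrial ribosome were examined for histone H4 lysine 12 lactylation (H4K12la) in pig liver. They were taken by a symbol rule from the coding genes of the Sscrofa11.1 RefSeq annotation. The stems NDUF, UQCR, ATP5, MRPL and MRPS had to be followed by set letters or digits. COX had to be followed by a number with at most 1 letter and 1 digit after it, and SDH by A, B, C or D only. The rule found 158 genes and uses no measured value. Of these, 153 lie on the assembled chromosomes, out of 16320 named coding genes there. COX1, COX2 and COX3 lie on the mitochondrial genome, and MRPL41 and MRPS2 on unplaced sequence, where neither peak list has entries, so these 5 have no value. The series compares liver of late-gestation sows with low (normal) bile acids and with high bile acids, and each group has 1 input library beside 1 library from the immunoprecipitation. All are labelled female liver, cell type hepatocytes, of Sus scrofa, and the antibody was anti-H4K12la. Breed, age, the number of sows behind a library and how the bile acid groups were formed are not given in the sources used here. With 1 library per group, a difference between the lists has no replicate check, and no p-value between groups was computed.

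Lactylation is the addition of a lactyl group to lysine, and cells draw that group from lactate, so the mark ties chromatin to the fate of pyruvate. Pyruvate that is not turned into lactate is oxidised in mitochondria, where complexes I to IV pass electrons from NADH and succinate to oxygen. Complexes I, III and IV pump protons as they do so, complex II does not, and complex V, the ATP synthase, uses the proton gradient to make ATP. A few core subunits of these complexes are encoded by mitochondrial DNA and are made by the mitochondrial ribosome, all of whose proteins are nuclear-encoded and imported. Hepatocytes are rich in mitochondria, and the genes for both machines are broadly expressed.

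The measurements are 2 lists of narrow peaks, 28283 for the high library (the high list) and 5735 for the low library (the low list), and every position is given in Sscrofa11.1. The fold of a peak is the enrichment at its summit that the authors' caller gave over the local background, and q is that caller's value against the library's own input. Solved from the fold and p of the peaks, the depth was 6.71 fragments per kb of genome for the high library and 7.37 for the low one, on the scale of the caller's own effective genome size, which is unknown here. In the low list 97.4% of the peaks had a q of 1, and 13 had a q under 0.05, against 608 in the high list. A gene-end peak has its summit within 1 kb of either end of a gene, on either side. The gene table used here gives no strand, so one of these ends is the start and which one is not known. Of 11 hepatocyte marker entries, the high list had a gene-end peak at 1 (TTR; 1.88 in coding genes of like length) and the low list at 0. Of markers of other cells, the high list had such a peak at 2 of 4 lymphocyte genes (CD3D and CD79B; 0.680 at like length) and 1 of 5 endothelial genes (CDH5; 0.756), and the low list at 1 of 6 Kupffer and myeloid genes (AIF1; 0.176). Neither list had one at the 6 stellate and fibroblast, 4 cholangiocyte or 4 erythroid genes. The peaks thus gave no check of the labelled cell type, and the part of other cells in the results was not tested.

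The first comparison asked how often these genes carried the mark at their ends. In the high list, 28 of the 153 genes (18.3%) were marked at an end, beside 16.5% of all named coding genes. Coding genes of the same length classes would give 26.6 genes, so the whole set lay near its background. For the low list it was 9 of 153 (5.88%), beside 3.13% of all coding genes and 4.57 genes at like length. The low-list count rests mostly on peaks over 500 bp from the gene end. With a window of 500 bp it fell to 1 of 153, beside 1.62% of coding genes and 2.38 genes at like length. The high-list count with that window was 20 (13.1% beside 9.28%, and 14.6 genes at like length). The summits of MRPL46, MRPS10 and MRPS11 lay 960, 971 and 999 bp from the end, just inside the 1 kb limit. Just outside it were COX6B in the low list, at 1032 bp, and, among others, COX6A1, MRPS36 and MRPL22 in the high list, at 1198 to 1228 bp.

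The counts of the ribosome lay above, and those of the chain in the high list below, what gene length gives. Of 74 mitochondrial ribosome genes, 19 had a high-list gene-end peak (25.7%), where like-length coding genes would give 12.8. Of 79 respiratory chain genes, assembly factors included, 9 had one (11.4%), where like length would give 13.7. In the low list the ribosome had 7 of 74 (9.46%; 2.22 at like length) and the chain 2 of 79 (2.53%; 2.35 at like length). The share was thus higher for the ribosome in both lists with the 1 kb window, but the split was seen in 1 liver library per group and was not tested. With a window of 500 bp the low-list counts of ribosome and chain were 0 and 1 (1.16 and 1.22 at like length, 1.62% of all coding genes). The high-list counts were then 12 and 8 (7.10 and 7.53 at like length, 9.28%). MRPS11 and MRPL46 were both counted in the low list from the same peak. When a peak counted only for the coding gene with the nearest end, the high-list counts of ribosome and chain were 16 and 6 (11.4 and 12.1 at like length, 15.0% of all coding genes) and the low-list counts 5 and 2 (1.92 and 1.98 at like length, 2.79%). With the high list limited to as many peaks as the low list, those of smallest p, the ribosome had 6 genes and the chain 1 (3.58 and 3.80 at like length, 4.63%). Among high-list peaks of a fold of 3 or more, the ribosome count was near its background, at 7 genes (6.30 at like length), and the chain had 3 (6.71).

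**Figure D1:**
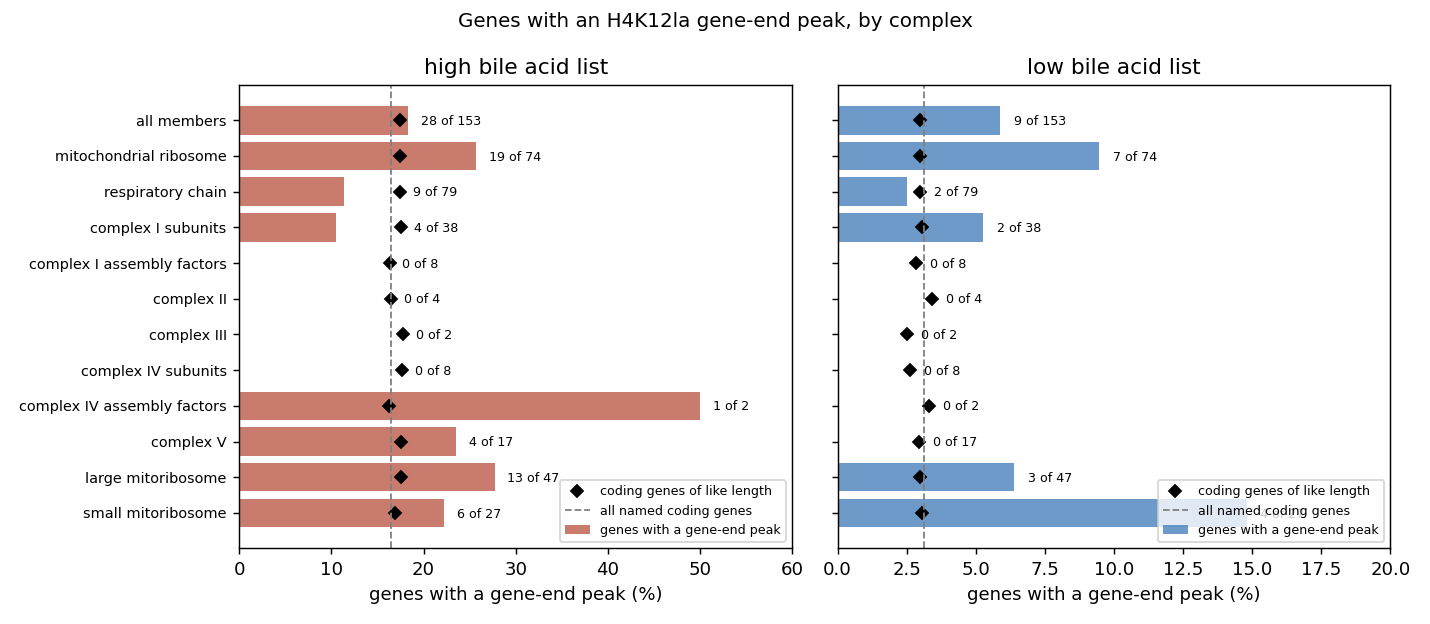
Share of genes with a gene-end peak (bars, in percent) in the high list (left, axis to 60%) and the low list (right, axis to 20%), for all members, for the ribosome and chain, and for the 9 groups. Diamonds give coding genes of like length and the dashed line all named coding genes (16.5% and 3.13%). The ribosome bars (25.7% and 9.46%) lie right of their diamonds, and 4 groups have no gene-end peak in either list.

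Within the chain the counts were uneven between complexes. Complex I subunits had 4 of 38 so marked in the high list (6.69 at like length) and 2 of 38 in the low list (1.16 at like length). None of the 8 NDUFAF assembly factors, 4 complex II genes, 2 complex III genes or 8 complex IV subunit genes had one in either list. At these group sizes like-length genes would give 1.30, 0.660, 0.356 and 1.42 in the high list, so a count of 0 is little removed from the background. Complex V had 4 of 17 in the high list (2.98 at like length) and 0 in the low list (0.501). Ribosome genes were assigned to the large or small subunit by symbol alone (MRPL or MRPS), which was not checked against the place of each protein. So assigned, the large subunit had 13 of 47 (8.28 at like length) in the high list and the small subunit 6 of 27 (4.57). The low-list numbers were 3 of 47 (1.39) and 4 of 27 (0.828).

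Of the 15 large-subunit genes marked at an end in either liver, 12 (80.0%) were called only for the high library, near the 83.4% of all coding genes marked in either. MRPL33, which encodes a small protein of the large subunit, had the strongest gene-end peak of all members. The gene lies at chromosome 3, 111428850 to 111438735, and the peak at 111438562 to 111438916, with its summit 55 bp inside the upper end. Its fold was 4.43 (q 0.0177), from 13 fragments (exact Poisson 95% interval 6.92 to 22.2) over 2.16 expected. The low list had no peak within 10 kb of MRPL33. A call in the low library would have needed 7 fragments over the same expected number, which lies inside that interval, so the missing call does not show a difference at this gene.

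MRPL52, MRPL36 and MRPL19 followed among large-subunit genes. MRPL52 had a fold of 3.94 (q 0.0603, 12 fragments), with the summit 210 bp beyond its upper end on chromosome 7. MRPL36 is a short gene, at chromosome 16, 79001488 to 79002781, so that its peak at 79002072 to 79002408 counted for both ends. It had a fold of 3.91 (q 0.067, 12 fragments). The same peak lay 2224 bp outside NDUFS6, a complex I subunit gene beside MRPL36. MRPL19 had 3.69 (q 0.139, 10 fragments), with the summit 251 bp beyond its upper end on chromosome 3. MRPL12, which encodes the stalk protein of the large subunit, had a fold of 2.94 (q 0.232, 11 fragments), with the summit 697 bp below its lower end on chromosome 12.

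The other 8 large-subunit genes of the high list had folds from 2.21 to 3.02, on 8 to 11 fragments. They were MRPL30, MRPL55, MRPL3, MRPL16, MRPL46, MRPL4, MRPL50 and MRPL58, the last of which encodes a peptidyl-tRNA hydrolase built into the ribosome. In MRPL55, MRPL58 and MRPL3 the summit fell 7, 8 and 99 bp from a gene end. Of the low-list genes, MRPL9 had a fold of 3.27 (10 fragments) 658 bp inside its upper end. MRPL40 had 3.11 (13 fragments) 762 bp beyond its upper end, from a peak that also lay at an end of C14H22orf39. Both had a q of 1, and neither was marked at an end in the high list.

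Among small-subunit genes, MRPS21 had the strongest peaks in both livers. The gene lies at chromosome 4, 98780329 to 98795223. In the high list its peak spans 98794619 to 98794926, with the summit 486 bp inside the upper end, a fold of 4.15 (q 0.037) and 12 fragments (6.20 to 21.0) over 2.13 expected. Its low-list peak spans 98795756 to 98796054, with the summit 636 bp beyond the same end, a fold of 3.80 (q 1) and 13 fragments (6.92 to 22.2) over 2.27. The peaks flank that gene end and lie 830 bp apart, so both livers had a call here but not at the same position. The low-list peak is the only gene-end peak of any member whose interval lay above the fewest fragments the other library would have needed, which was 6. A second low-list peak, of fold 2.89, lay inside the gene 1524 bp from the lower end.

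MRPS11 and MRPL46 encode proteins of different subunits and are neighbours, with MRPS11 ending at 191321951 and MRPL46 beginning at 191321990 on chromosome 1. In mammals they are known as a pair transcribed in opposite directions from a shared start region. A high-list peak, at 191321060 to 191321414, counted for both genes, with its summit 705 bp inside MRPS11, a fold of 2.50 (q 0.381) and 11 fragments. A low-list peak, at 191322832 to 191323130, counted for both, with its summit 960 bp inside MRPL46, a fold of 2.60 (q 1) and 8 fragments. The peaks lay on either side of the gap between the genes, 1418 bp apart. These genes and MRPS21 were the 3 members marked at an end in both livers, beside 0.735% of all coding genes, and 2 of the 3 rest on the same pair of peaks.

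The other small-subunit genes with a gene-end peak had it in 1 list. MRPS6 had a high-list fold of 3.69 (q 0.139, 10 fragments) from a peak 634 bp inside its lower end. MRPS14 had 2.68, MRPS28 2.60 and MRPS7 2.56, each with a q of 0.429 to 0.50. On the low side MRPS24 had 3.41 (12 fragments) and MRPS10 2.68 (8 fragments), both with a q of 1. MRPS5 had no peak within 10 kb in either liver.

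**Figure D2:**
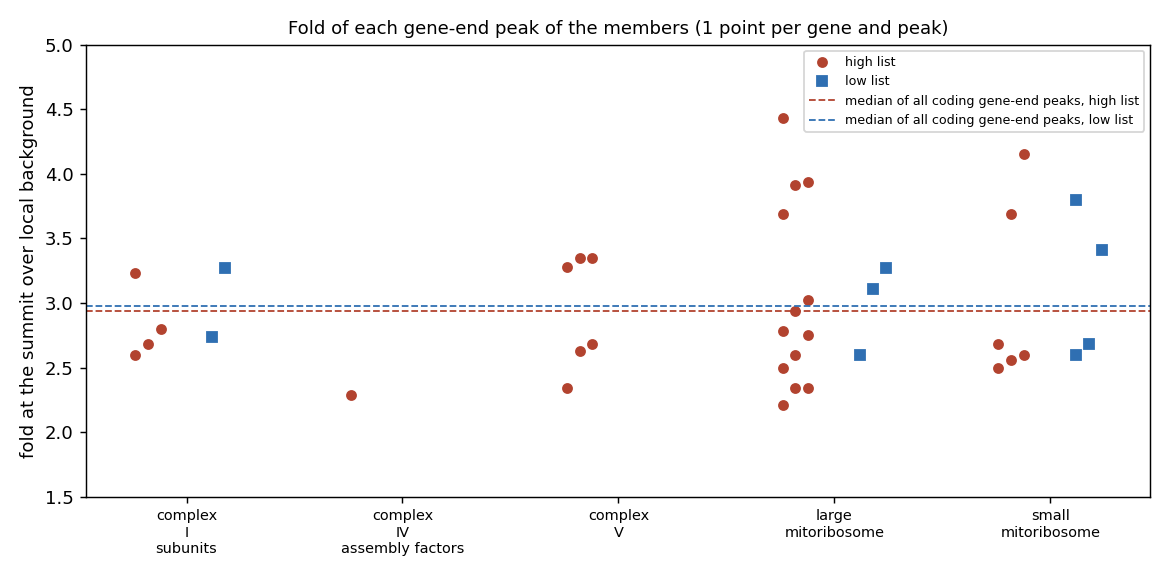
Fold at the summit (vertical axis, from 1.5) of each gene-end peak, with 1 point per gene and peak, in the high list (circles) and the low list (squares), for the groups that have any. Dashed lines give the medians of all coding gene-end peaks (2.94 and 2.98). Folds above 3.5 are found among mitochondrial ribosome genes, up to 4.43 at MRPL33, and chain genes reach 3.35.

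Complex I takes electrons from NADH, and its core subunits carry the flavin and the iron-sulfur clusters. NDUFV1, the subunit that oxidises NADH, had no peak within 10 kb in either liver. NDUFS1, the large iron-sulfur subunit, had no gene-end peak but had the strongest peak of any chain gene in the high list. It lay 5206 bp outside the gene, at chromosome 15, 109408339 to 109408814, with a fold of 4.36 (q 0.031) and 12 fragments over 1.98 expected, and the low list had none within 10 kb. NDUFS3, a core subunit of the arm that leads electrons to ubiquinone, had a high-list gene-end fold of 2.68 (7 fragments). The accessory subunit genes NDUFB7 and NDUFA13 had 3.23 (q 0.176, 11 fragments) and 2.80 (q 0.248, 12 fragments). NDUFB7 shares its peak with an end of TECR, NDUFA13 with YJEFN3 and NDUFS3 with KBTBD4. Low-list peaks were found at the membrane-arm genes NDUFB2 and NDUFB8, with folds of 3.27 (10 fragments) and 2.74 (8 fragments) and a q of 1, and neither had a high-list gene-end peak. NDUFB2 had a high-list peak of fold 4.03 (q 0.0735) inside the gene, 6385 bp from an end.

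Complex II, succinate dehydrogenase, is encoded wholly in the nucleus. SDHA, the flavoprotein, and SDHD, a membrane anchor, had no peak within 10 kb in either liver. SDHB, the iron-sulfur subunit, had 1 high-list peak inside the gene, of fold 2.73 (q 0.394, 8 fragments), and SDHC, the other anchor, had 1 of 3.36 (q 0.232, 9 fragments). Of the complex III genes, UQCR10 had no peak within 10 kb and UQCRB had a low-list peak of fold 2.60, 6203 bp outside the gene. UQCRC1 and UQCRFS1 of complex III and COX4I1 and COX5A of complex IV would match the rule. They had no coding entry under these symbols in the annotation used, so they were not analysed here. Complex III is thus covered by UQCR10 and UQCRB only.

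Among complex IV subunit genes, COX6B had peaks in both lists that came close to each other. The gene lies at chromosome 6, 45091829 to 45102785. Near its lower end the low list had a peak at 45092805 to 45093141, of fold 3.34 (q 1, 10 fragments), and the high list 1 at 45093470 to 45093809, of fold 3.41 (q 0.139, 11 fragments), 329 bp further inside. The high list had another of fold 2.94 outside this end, 1981 bp away. COX10, which encodes the farnesyltransferase of heme A synthesis, had a high-list gene-end peak of fold 2.29 (q 0.50, 10 fragments) 171 bp inside its lower end and 2 further peaks inside the gene. COX17, the copper chaperone of complex IV assembly, had no peak within 10 kb.

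In complex V the highest folds at gene ends were at genes of the proton-conducting ring. ATP5G1, at chromosome 12, 25110540 to 25113481, had 3 high-list gene-end peaks, more than any other member. Their folds were 2.68 (q 0.50, 7 fragments), 3.35 (q 0.232, 9 fragments) and 3.28 (q 0.232, 9 fragments), the first 484 bp below the lower end and the others on either side of the upper end. ATP5G3, which encodes the same ring protein, had 3.35 (q 0.232, 9 fragments) 254 bp inside its upper end. ATP5D, the delta subunit, and ATP5I, a membrane subunit, had 2.63 (9 fragments) and 2.34 (8 fragments). ATP5A1 and ATP5B, which encode the alpha and beta subunits of the catalytic head, had no peak within 10 kb in either liver. ATP5S and ATP5SL match the rule by name but are not counted among the structural subunits of the enzyme, and had peaks inside the gene only, the highest with a fold of 3.36 (q 0.232) in each. In ATP5SL that peak also lay at an end of LIPE.

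**Figure D3:**
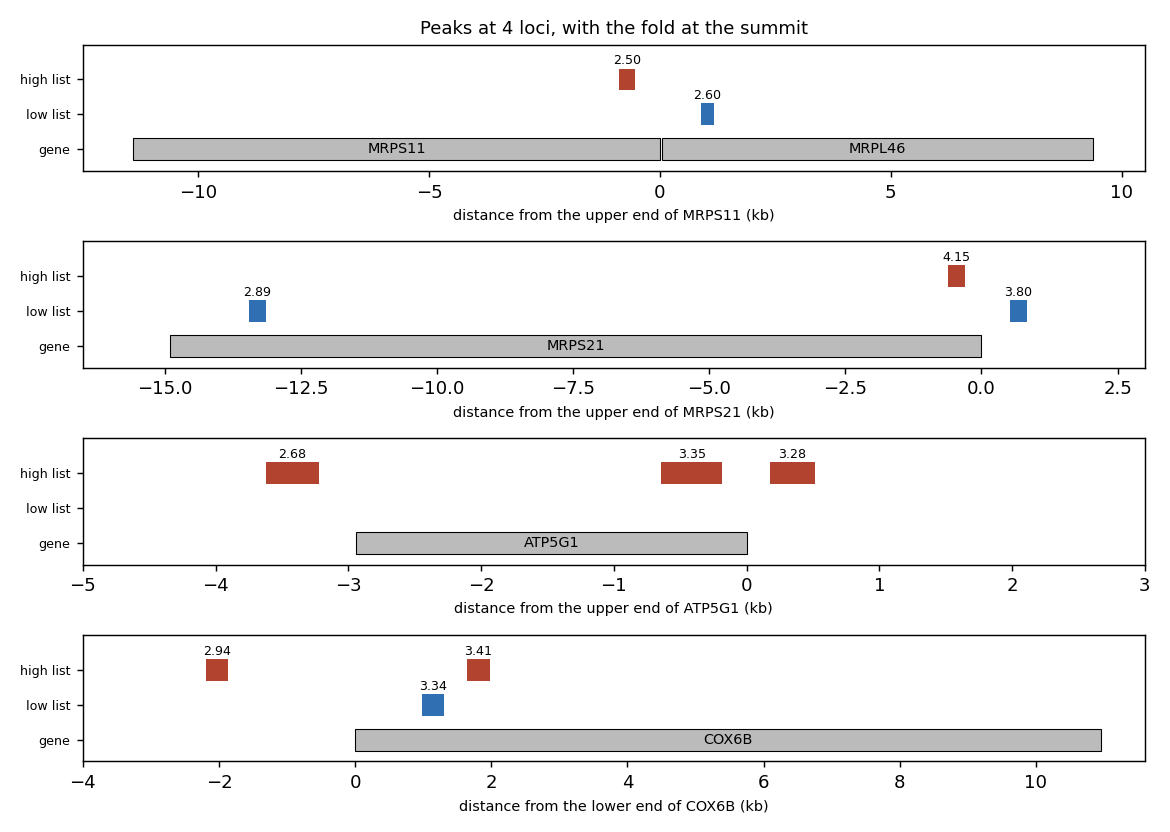
Peaks of the high list (upper row) and low list (middle row) at MRPS11 and MRPL46, MRPS21, ATP5G1 and COX6B, with the gene as a grey bar, the distance from a gene end in kb on the horizontal axis and the fold above each peak. At MRPS21 and at the MRPS11 and MRPL46 pair the high-list and low-list peaks lie on opposite sides of a gene end, and ATP5G1 has 3 high-list peaks and none in the low list.

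The fragments behind these calls were few. The 29 high-list gene-end peaks of the members had 7 to 13 fragments at the summit, with a median of 9, as for all coding gene-end peaks. Their median fold was 2.75, beside 2.94 for all 2628 coding gene-end peaks of that list, and 2 of the 29 (6.90%) had a q under 0.05, beside 4.11%. The 8 low-list peaks had 8 to 13 fragments, a median fold of 3.19 beside 2.98, and none had a q under 0.05. For 0 of the 29 high-list peaks did the interval of the fragments lie at or above the number needed in the low library (7 to 11), and for 1 of the 8 low-list peaks did it do so for the high library (6 to 8). At gene ends, 25 members were called only for the high library (16.3%, beside 15.8% of all coding genes and 25.6 at like length) and 6 only for the low one (3.92%, beside 2.4% and 3.56 at like length). The 25 are 73.5% of the 34 members marked in either list, beside 83.4% for all coding genes. These are differences of calls, and for every gene-end peak except the low-list one of MRPS21 the fragment interval reaches below the number needed for a call in the other library.

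**Figure D4:**
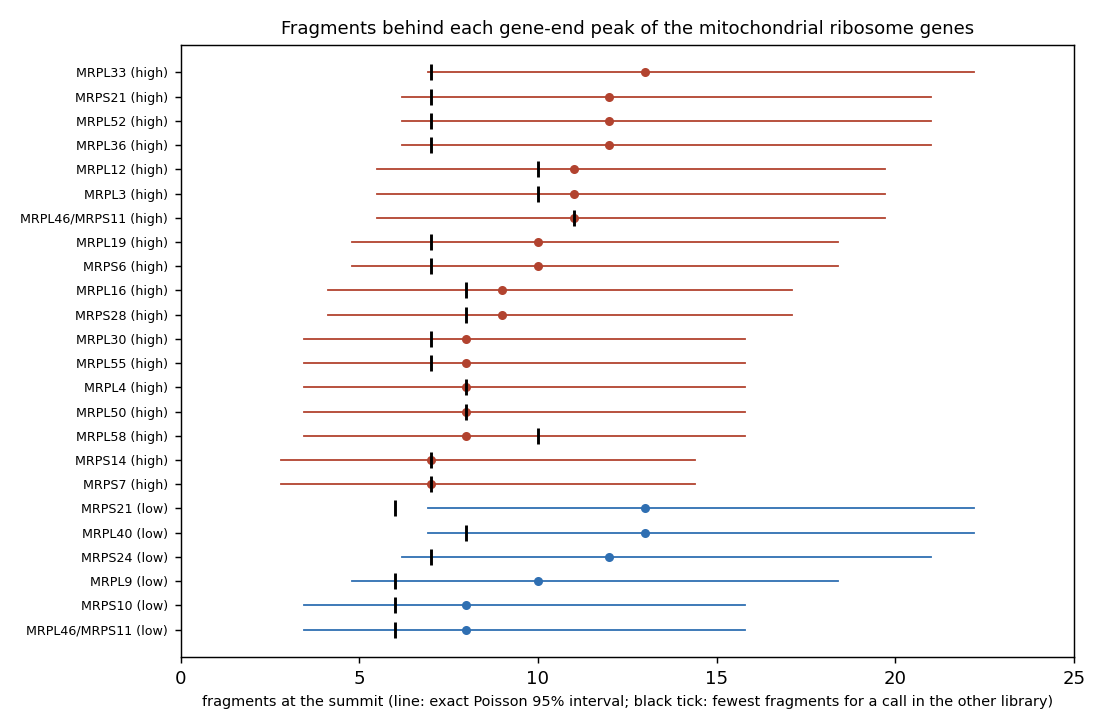
Fragments at the summit of each gene-end peak of the mitochondrial ribosome genes (points, with exact Poisson 95% intervals, counting error only) in the high list (red) and the low list (blue). Black ticks give the fewest fragments that a call in the other library would have needed. Of the 24 peaks shown, only the low-list peak of MRPS21 has its whole interval above the tick.

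Peaks inside the genes were compared next, with the summit in the gene and over 1 kb from both ends. For the high list 25 of 153 members had such a peak (16.3%), beside 38.6% of all coding genes, and for the low list 10 of 153 (6.54%), beside 13.3%. The members are short, with a median length of 8.81 kb against 25.6 kb for all coding genes. Coding genes of like length would give 35.1 (high) and 8.98 (low). Per length of gene interior, the members had 13.5 summits per Mb in the high list and all coding genes 13.4, and in the low list 3.90 and 2.68. The high-list count was thus below that of genes of like length while the density per Mb was not below that of all coding genes, whose interiors are mostly those of long genes. Complex I subunits had 9.04 summits per Mb inside the gene in the high list, with 3 of 38 genes (7.63 at like length), complex V 23.3 and the ribosome 13.7. The complex V value rests on 6 summits, 4 of them in ATP5SL and 1 in ATP5S. Neither gene is counted among the structural subunits of the enzyme. Long genes held many of the members' peaks inside the gene. MRPS22, which is 225 kb long, and MRPL1 had 4 each in the high list, ATP5SL also had 4, and MRPL48 had 3.

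With everything up to 10 kb outside the gene counted, the high-list number was near its background and the low-list number above that of like length. For the high list 84 of 153 members had a peak (54.9%), beside 62.5% of coding genes and 84.8 at like length. For the low list 31 did (20.3%), beside 21.9% and 24.1 at like length. Of the 74 ribosome genes, 46 (high) and 18 (low) did so (41.5 and 12.1 at like length), and of the 79 chain genes 38 and 13 (43.3 and 12). Peaks of both lists lay within 10 kb of 18 members, beside 16.5% of coding genes, and 56 members (36.6%) had none in either list, beside 32.1% of coding genes and 60 at like length. Of those 56, 34 were chain genes (31.5 at like length) and 22 ribosome genes (28.5). At MRPL27 alone did a high-list and a low-list peak overlap. They lay over 8 kb outside that gene, with folds of 3.38 and 2.63, and the low-list summit was within 1 kb of an end of XYLT2. Peaks with a q under 0.05 within 10 kb were found for 3 members, MRPL33, MRPS21 and NDUFS1, all in the high list (1.96% beside 3.58%). None was found in the low list, beside 0.0613% of coding genes.

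The position of the summits around the gene ends was described by distance from the nearer end of each gene. A summit near more than 1 gene counted once for each, so the MRPS11 and MRPL46 peak of each list counted both inside and outside a gene. In the high list the ribosome genes had 69.7 summits per Mb in the first kb inside the gene and 60.8 in the first kb outside, and all coding genes 53.8 and 36.8. The chain genes had 32.2 and 38.0 there, and their highest value, 44.3, lay 1 to 2 kb outside the gene. Low-list values were 27.9 and 20.3 for the ribosome genes, 12.9 and 0 for the chain genes, and 9.38 and 6.77 for all coding genes. The bins of the members hold few summits each, and no bin was tested.

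**Figure D5:**
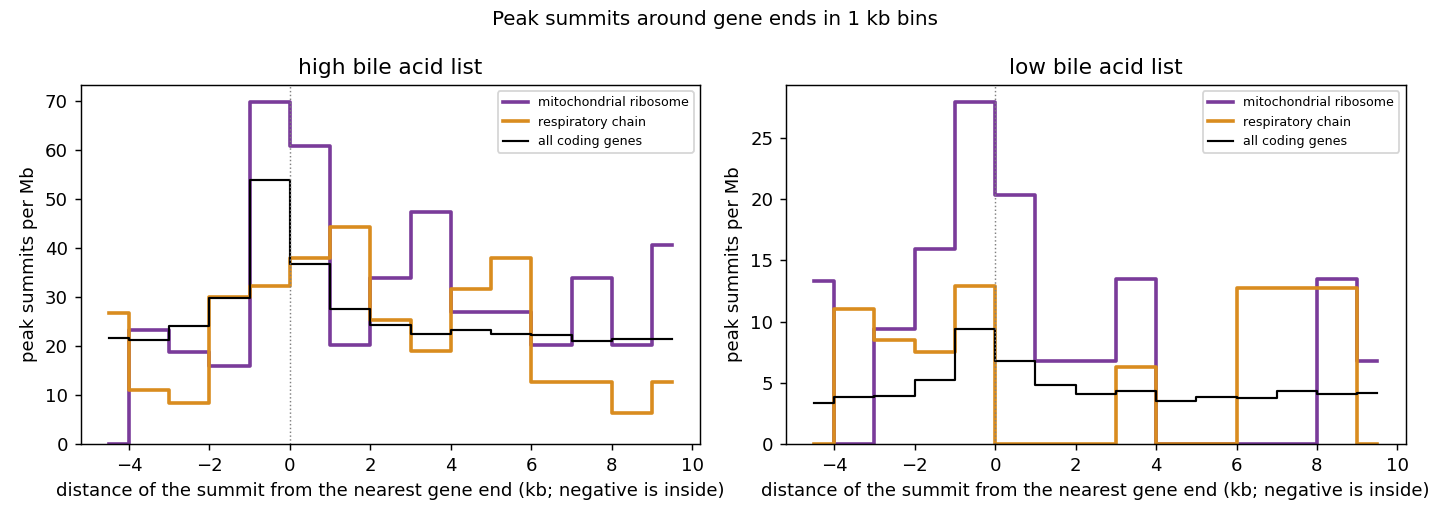
Peak summits per Mb in 1 kb bins by distance from the nearer end of each gene (kb, negative inside the gene) for ribosome genes, chain genes and all coding genes, in the high list (left) and the low list (right, smaller scale). A summit near more than 1 gene counts once for each. The ribosome line has its highest values in the bins next to the gene end (69.7 and 60.8 in the high list), and the chain line stands at 32.2 and 38.0 there.

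Members have close neighbours more often than other genes. Another annotated gene end lay within 1 kb of an end of 57.5% of the members (88 of 153) and of 36.1% of all coding genes. Of the 29 high-list gene-end peaks, 11 lay within 1 kb of an end of another annotated gene as well, among them SLC5A3 at MRPS6, GUK1 at MRPL55 and MITD1 at MRPL30, so these peaks cannot be given to 1 gene. The same holds for 3 of the 8 low-list gene-end peaks, at MRPL40, at NDUFB8 and at the MRPS11 and MRPL46 pair. Over all coding genes 19.4% were marked at an end in the high list where they had such a neighbour and 14.9% where they did not. Among the ribosome genes it was 9 of 42 with a neighbour (21.4%) and 10 of 32 without (31.2%), and among chain genes 6 of 46 and 3 of 33. With length and neighbours both used to form the classes, 28 members would have a high-list gene-end peak and 4.83 a low-list one, against the 28 and 9 counted. By chromosome, 7 of the 20 members on chromosome 2, 5 of the 12 on chromosome 12 and 0 of the 10 on chromosome 6 were marked at an end in the high list. Coding genes there had 19.9%, 21.7% and 17.6%. Other chromosomes also had no such member, among them 5 (of 8 members) and 14 (of 6). On chromosome X only 3 of 609 coding genes (0.493%) and 0 of 2 members were so marked.

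The cytosolic ribosome, taken by the RPL and RPS symbols, and lists of other mitochondrial genes chosen by function were counted for comparison. The cytosolic ribosome had 12 of 79 genes marked at an end in the high list (14.0 at like length) and 1 in the low list (2.00), led by RPS7 with a fold of 4.36 (q 0.031). Its share in the high list was 15.2%, below the 25.7% of the mitochondrial ribosome, a difference that was not tested. Genes listed for mitochondrial translation and ribosome assembly had 2 of 23, AURKAIP1 and DHX30, with 3.96 at like length. PTCD3 was the low-list gene. Which proteins of this list are part of the ribosome itself was not checked, so it is not a set apart from the ribosome. Assembly factors of the respiratory complexes outside the symbol rule had 2 of 20 (3.38 at like length), ECSIT and TMEM186, and 0 in the low list.

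Upstream of the chain, the tricarboxylic acid cycle and pyruvate dehydrogenase had the highest share of these lists, 6 of 16 in the high list (37.5%; 2.63 at like length) and 0 in the low list. They were DLST, DLD, SUCLA2, DLAT, OGDH and PDHB, with folds from 2.34 to 3.16 and q values from 0.214 to 0.548. The rank of this small list among the others was not tested. DLAT, DLD and PDHB encode pyruvate dehydrogenase components, and DLD also serves the oxoglutarate dehydrogenase of OGDH and DLST. Genes of mitochondrial DNA expression and biogenesis had 4 of 24 (3.90 at like length), among them NRF1, a transcription factor of respiratory genes, with 3.69 (q 0.139), and ESRRA with 3.25. Mitochondrial tRNA synthetases had 2 of 16 (2.62 at like length), NARS2 with 4.35 (q 0.031) and LARS2, and IARS2 in the low list. Protein import had 4 of 20 in the high list (3.55 at like length) and 2 in the low list, TOMM22 and TOMM7. Electron carriers and coenzyme Q synthesis had 4 of 15 (2.50 at like length), and CYCS, which encodes cytochrome c, had a low-list peak of fold 3.46 (q 1).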

How the data were processed

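H4K12la immunoprecipitation was compared through 2 deposited peak lists, 1 per group, each called on its own library without pooling. The titles gave the groups. The submitters' processing notes list MACS2 2.1.0, Bowtie 1.1.2, Trimmomatic 0.33 and bcl2fastq 2.17. Both hg38 and Sscrofa11.1 are listed as builds, and the last peaks of the chromosomes lay near the last Sscrofa11.1 genes. The deposited fold is a ratio over the local background at the summit, the deposited −log10 p-values and −log10 q-values are the authors' caller's, and the deposited score, a multiple of the former, was not used.

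Members, groups and lists were chosen with earlier results of these data known. Gene positions were those of RefSeq for Sscrofa11.1 (16320 named coding entries of 28210 annotated genes, LOC names left out). That table has no strand and no sequence was used, so the planned split by start site and the promoter motifs were not run, and no sequence is printed. Like-length numbers are the shares of all coding genes in 10 length classes, averaged over the members. Fragments and expected numbers were solved from fold and p-value (within 0.002 in log10 p for 100% of peaks, the low library's pileup multiplied by 0.881 by the caller), and the fewest fragments for a call used the largest p in the other list (0.00989). Intervals cover counting error only, since reads without molecular identifiers are not independent molecules. The code was tested on simulated data. Python 3.11.15, pandas 2.3.3 and SciPy 1.17.1 were used.

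Genes were named by a rule: all members with a low-list gene-end peak or a q under 0.05 within 10 kb, up to 4 per group by high-list fold, members with 2 or more gene-end peaks in 1 list, and core subunits whatever their values. Any other gene was picked with its values in view. One named gene is not reported here.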

Additional observations from a re-analysis of the deposited data

How the results depend on the processing

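No paired analysis was possible because there is 1 library with peaks in each group. Numbers of like-length coding genes stand in parentheses. The high-list count of 28 members with a gene-end peak became 46 with a window of 3 kb (48.7 at like length), 10 at a fold of 3 or more (13.0), 7 with the high list at the length of the low list (7.38) and 2 at q under 0.05 (1.11). It lay slightly above its like-length number in the main setting and below it in all of these but the last. It was also above that number with a window of 500 bp, at 20 (14.6), and with assembly factors left out, at 27 (24.9). Where any overlap of the peak with the window counted, it was 30 (29.7). With only the nearest gene end counted it was below, at 22 (23.6). The low-list count of 9 became 1 with a window of 500 bp (2.38), 5 at a fold of 3 or more (1.99) and 0 at q under 0.05. The 19 ribosome genes of the high list became 12 with a window of 500 bp (7.10), 7 at a fold of 3 or more (6.30), 6 at the length of the low list (3.58) and 2 at q under 0.05 (0.537), and the 7 of the low list became 0, 4 and 0 (1.16, 0.987 and 0) with a window of 500 bp, at a fold of 3 or more and at q under 0.05. The 9 chain genes of the high list became 19 with a window of 3 kb (25.4), 3 at a fold of 3 or more (6.71), 1 at the length of the low list (3.80) and 0 at q under 0.05 (0.575), and the 2 of the low list became 1, 4, 1 and 0 (1.22, 4.99, 1.01 and 0) with windows of 500 bp and 3 kb, at a fold of 3 or more and at q under 0.05. Peaks inside the gene, 25 and 10 members, became 0 and 0 at q under 0.05 (1.32 and 0.027), 9 in the high list at the length of the low list (10.3) and 6 in the low list with a window of 3 kb (6.83). Within 10 kb, 84 and 31 members became 3 and 0 at q under 0.05 (4.66 and 0.103), 51 and 19 at a fold of 3 or more (50.2 and 11.5), and 30 in the high list at the length of the low list (29.9). Shorter lists and other windows hold other numbers of peaks by construction. The ribosome count was above that of the chain in the high list under each of these and the other settings tried, 8 in all, and in the low list except with a window of 500 bp, where it was 0 against 1, and at q under 0.05, where both were 0. The settings count the same peaks of 1 library per group again, so they are not independent checks. Of the counts for all members, the ribosome and the chain under these settings, 40 stayed within 1.5 times their value in the main setting and 31 did not. Counts by complex are not among these. The like-length numbers under 50 length classes, and under classes of length and neighbour, were added after the data were seen and stayed within 1.5 times. The calls at the members' gene ends rest on 7 to 13 fragments, which limits their precision.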
